A study of Mus musculus with 4 samples.

Results

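GC-rich regions outside promoters were open chromatin regions, detected by ATAC-seq in mouse embryoid bodies (EBs), whose sequence was at least 62% G plus C and whose strongest summit lay more than 1000 bp from every protein-coding transcription start site (TSS). ATAC-seq uses the Tn5 transposase to cut accessible DNA. The peaks of the 4 libraries were merged into 80380 regions wherever they shared at least 1 bp. GC content was measured from 250 bp before to 250 bp after the strongest summit of each region. On the autosomes, 63969 regions lay outside promoters, and 2016 of these met the GC minimum. The other 61953 had a lower GC content and served as the comparison. The rule used the reference sequence, the positions of peaks and, to choose the strongest summit, their ranks within each list. No difference between the genotypes entered it, although the summit of a region with peaks in a single genotype came from that genotype.

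The libraries came from EBs at day 4, made by the hanging-drop method from E14Tg2A mouse embryonic stem cells (mESCs) in medium with serum and without LIF. There were 2 libraries of wild-type (WT) EBs and 2 of CTCF-K20R EBs, which carried a CRISPR/Cas9-made change of lysine 20 of CTCF to arginine. The labels do not say which mutant clone each CTCF-K20R library came from, so an effect of a clone and an effect of the mutation cannot be told apart. With 2 libraries per genotype, the smallest two-sided p of an exact permutation test of a single value is 0.333. The lists held 51823 to 66703 peaks, fewer in each CTCF-K20R library than in either WT library, and sequencing depth is not in the lists.

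CTCF is a zinc finger protein that binds a long GC-rich motif and, with cohesin, anchors chromatin loops. CpG dinucleotides are rare in most of the mouse genome, because methylated cytosine mutates, and they persist in CpG islands, most of which mark promoters. CpG islands also lie inside genes, often over coding exons, and at start sites of non-coding transcripts. Proteins with CXXC domains, among them subunits of Polycomb and Trithorax complexes, bind unmethylated CpG, and factors of the SP and KLF families bind GC boxes. In differentiating mESCs, many CpG islands of developmental genes carry Polycomb marks.

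Of the 2016 GC-rich regions, 767 had their summit in an exon (565 of them in coding sequence), 695 in an intron and 554 between genes. Exons held 38.0% of them and 6.48% of the regions with lower GC. Their median CpG observed over expected ratio was 0.700, against 0.222, and 67.2% reached a ratio of 0.6 against 2.56%. They were wider, with a median of 1210 bp against 631 bp. They lay closer to coding genes, with a median distance to the nearest protein-coding TSS of 9165 bp against 26524 bp. The start of a non-coding transcript lay within 1 kb of 16.4% of them and of 4.61% of the others.

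The sequences of 9 regions show what these classes look like on the plus strand of the mouse genome (RefSeq GRCm38.p6, mm10). Each runs from 100 bp before to 100 bp after the strongest summit. In the first 8, capitals mark every CG dinucleotide. The first pair, an exon of the non-coding gene Tmem250-ps and a coding exon of Cacna1i, were among the regions that gained most in rank in CTCF-K20R EBs, and hold 15 and 17 CpGs.
Tmem250-ps exon, chr2:26138615-26138815: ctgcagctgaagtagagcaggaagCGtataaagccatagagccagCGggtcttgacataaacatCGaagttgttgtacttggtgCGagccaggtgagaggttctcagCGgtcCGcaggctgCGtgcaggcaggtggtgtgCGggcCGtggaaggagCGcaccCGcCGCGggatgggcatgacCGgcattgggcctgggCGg
Cacna1i exon, chr15:80372325-80372525: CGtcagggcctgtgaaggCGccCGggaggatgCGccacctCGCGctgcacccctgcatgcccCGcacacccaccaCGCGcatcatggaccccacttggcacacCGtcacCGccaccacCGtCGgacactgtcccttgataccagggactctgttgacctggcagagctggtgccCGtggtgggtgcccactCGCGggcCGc
The next pair lost rank in CTCF-K20R EBs. The intergenic region nearest Cdc42ep1 holds 2 CpGs in its 201 bases, and the intron of Tcf20 holds 11.
Cdc42ep1 intergenic, chr15:78834361-78834561: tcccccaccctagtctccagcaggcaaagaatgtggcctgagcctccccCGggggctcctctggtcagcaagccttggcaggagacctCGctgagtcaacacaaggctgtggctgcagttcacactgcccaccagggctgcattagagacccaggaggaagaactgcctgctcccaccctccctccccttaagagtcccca
Tcf20 intron, chr15:82961046-82961246: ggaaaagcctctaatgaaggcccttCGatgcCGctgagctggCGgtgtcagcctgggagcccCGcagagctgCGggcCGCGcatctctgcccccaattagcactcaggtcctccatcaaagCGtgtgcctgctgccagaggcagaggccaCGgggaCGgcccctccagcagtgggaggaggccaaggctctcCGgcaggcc
The third pair, coding exons of Drosha and Cacna1a, held peaks in both CTCF-K20R libraries and in neither WT library, with 9 CpGs each.
Drosha exon, chr15:12834011-12834211: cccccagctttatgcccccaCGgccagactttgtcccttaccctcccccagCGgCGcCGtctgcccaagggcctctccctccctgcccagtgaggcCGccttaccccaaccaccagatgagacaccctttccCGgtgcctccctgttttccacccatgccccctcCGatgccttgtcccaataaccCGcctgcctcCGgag
Cacna1a exon, chr8:84566277-84566477: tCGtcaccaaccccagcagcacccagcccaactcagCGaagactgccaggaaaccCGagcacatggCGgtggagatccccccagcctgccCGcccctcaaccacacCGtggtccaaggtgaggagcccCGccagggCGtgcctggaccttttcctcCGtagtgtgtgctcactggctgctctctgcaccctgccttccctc
The fourth pair held peaks in both WT libraries and in neither CTCF-K20R library, and have 4 and 3 CpGs.
Gng13 intergenic, chr17:25663556-25663756: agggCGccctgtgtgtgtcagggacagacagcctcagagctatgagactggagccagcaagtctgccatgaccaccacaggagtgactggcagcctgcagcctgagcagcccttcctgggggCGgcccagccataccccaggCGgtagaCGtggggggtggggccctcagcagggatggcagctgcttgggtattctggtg
Zfpm1 intron, chr8:122322745-122322945: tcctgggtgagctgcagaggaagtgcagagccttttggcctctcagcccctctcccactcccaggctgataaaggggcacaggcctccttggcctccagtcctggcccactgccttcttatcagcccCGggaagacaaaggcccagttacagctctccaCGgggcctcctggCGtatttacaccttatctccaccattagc
The last is an intergenic region nearest Irx4, with a match to the CTCF consensus, which is in capitals here. It is shown because such a match is rare in this class.
Irx4 intergenic, chr13:73160343-73160543: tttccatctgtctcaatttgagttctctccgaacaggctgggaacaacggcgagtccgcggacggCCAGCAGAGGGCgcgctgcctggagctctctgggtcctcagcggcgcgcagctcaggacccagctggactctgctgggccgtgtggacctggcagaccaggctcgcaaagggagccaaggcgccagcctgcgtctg

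Most GC-rich regions were open in both genotypes. A peak was present in all 4 libraries in 1781 of 2016 (88.3%), against 22533 of 61953 regions with lower GC (36.4%). By library, 1865 and 1883 of them had a peak in WT and 1896 and 1950 in CTCF-K20R. The means were 1874 ± 12.7 and 1923 ± 38.2 (SD, n = 2 each), and both CTCF-K20R libraries lay above both WT libraries although their lists were shorter. As a share of the regions outside promoters with a peak, they made up 4.33% and 3.78% in WT and 5.35% and 4.90% in CTCF-K20R, again with no overlap. The exact permutation test cannot go below 0.333 here.

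To determine which regions followed genotype, those with a peak in both libraries of one genotype and in neither of the other were counted. Of the GC-rich regions, 14 were WT-restricted and 36 were CTCF-K20R-restricted. Across all 63969 autosomal regions outside promoters, 12.4% were WT-restricted and 3.60% CTCF-K20R-restricted. Among the GC-rich regions these shares were 0.694% (95% Wilson interval 0.414 to 1.16) and 1.79% (1.29 to 2.46). The intervals cover counting error only, since regions are not replicates. The log2 ratio of WT-restricted to CTCF-K20R-restricted counts was −1.36 for GC-rich regions and 1.81 for those with lower GC, where 7932 stood against 2268. Leaving out CTCF-K20R replicate 2 brought the counts of GC-rich regions to 39 and 53, and keeping the same number of strongest peaks from each list brought them to 9 and 77. The regions with lower GC moved under the latter setting too, to 5316 and 3941. Their log2 ratio was then 0.432, against −3.10 for GC-rich regions. Without CTCF-K20R replicate 1 it was 0.695 for regions with lower GC and −2.22 for GC-rich regions. The size of each ratio thus depended on the peaks kept, and the GC-rich ratio stayed the lower in both settings. Peak numbers are missing throughout the lists, so a peak absent from a list may have been removed by a step that is not stated. The loss differed by genotype. The peaks in a list came to 51.7% and 50.5% of its highest peak number in WT, and to 58.6% and 60.8% in CTCF-K20R. Its effect on the restricted counts was not tested. Without a missing number in the region, 9 WT-restricted and 15 CTCF-K20R-restricted regions were left.

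**Figure D1:**
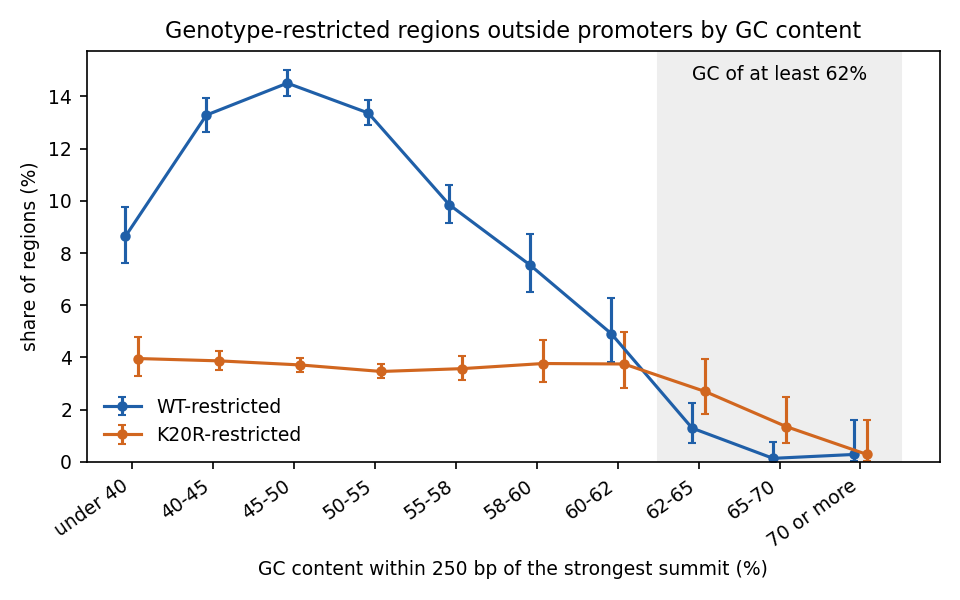
Share of autosomal regions outside promoters (y axis, percent) with peaks in both WT libraries and no CTCF-K20R library (blue) or the reverse (orange), by GC content within 250 bp of the strongest summit (x axis, percent). Bars are 95% Wilson intervals, for counting error only, and the shaded bins are the GC-rich regions. The blue share falls from 14.5% at 45 to 50% GC to 0.136% at 65 to 70%, while the orange share stays between 3.46% and 3.96% up to 62% GC.

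The WT-restricted share changed with GC content over the whole range, and the CTCF-K20R-restricted share only at its upper end. WT-restricted regions made up 14.5% at 45 to 50% GC, 13.4% at 50 to 55%, 7.54% at 58 to 60% and 4.92% at 60 to 62%. At 62 to 65% GC, 12 of 927 regions (1.29%) were WT-restricted and 25 (2.70%) CTCF-K20R-restricted. At 65 to 70%, these were 1 and 10 of 738. Above 70%, each was 1 of 351. The plot of restricted shares by GC content shows the curves crossing between the last bin below the minimum and the first above it. Peak strength differed as well: the strongest percentile of a region in any list had a median of 73.6 for GC-rich regions and 38.1 for the others. Within the strength classes below the 75th percentile the order was the same, on small counts of GC-rich regions. Below the 25th percentile, 5 and 14 of 125 GC-rich regions were WT-restricted and CTCF-K20R-restricted, against 2162 and 992 of 21683 with lower GC. Between the 25th and 50th percentiles, the counts were 8 and 16 of 266, against 3432 and 1006 of 17503. Between the 50th and 75th they were 1 and 6 of 674, against 1950 and 251 of 15984. Above the 75th, none of 951 GC-rich regions was restricted to a genotype, against 388 and 19 of 6783.

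In the regions restricted to a genotype, coding exons stood on the CTCF-K20R side. Of the 36 CTCF-K20R-restricted regions, 24 had their summit in an exon, and all 24 were in coding sequence. Of the 14 WT-restricted regions, 3 were exonic and 9 intronic. Without exonic regions, 11 WT-restricted and 12 CTCF-K20R-restricted regions were left, a log2 ratio of −0.126. This near balance depended on the setting. Outside exons the counts were 8 and 28 when the lists were cut to equal length. They were 18 and 31 without WT replicate 2, and 13 and 37 without CTCF-K20R replicate 1. The order turned without WT replicate 1, at 24 and 21, and without CTCF-K20R replicate 2, at 34 and 21. In coding exons with lower GC, 87 and 100 of 1363 regions were restricted to WT and to CTCF-K20R.

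The CTCF-K20R-restricted regions with the highest ranks covered genes of several kinds. Percentiles here are of peak strength in a library's own list, with the strongest peak at 100. In the intron of Nt5dc2 (chr14:31137084-31139199), the peaks stood at percentiles 58.2 and 51.1 in the CTCF-K20R libraries. The coding exon of Drosha, the RNase III enzyme of microRNA processing (chr15:12833034-12834806), reached 53.1 and 48.6. An intergenic region 35758 bp from Cbln4, a secreted synaptic protein of the cerebellin family (chr2:172006967-172008096), reached 41.0 and 59.8. The exon of Cacna1a, the pore subunit of P/Q-type calcium channels (chr8:84565774-84566551), reached 37.2 and 52.8. The exon of Cilp2, an extracellular matrix protein of cartilage (chr8:69880892-69881568), reached 39.2 and 50.2. These 5 peaks were thus of middling strength in the libraries that held them. Those of Cacna1a and Cilp2 lie on chromosome 8. There, 5.28% of regions with lower GC were CTCF-K20R-restricted, against 3.57% on the other autosomes. Named after their values were seen, the coding exons also included those of Wnt1, a secreted signalling protein of the midbrain, of the transcription factor Tfap2b and of the vesicular glutamate transporter Slc17a7.

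The WT-restricted regions were poorer in CpG. Their median CpG ratio was 0.248, against 0.530 for the CTCF-K20R-restricted regions and 0.715 for the common ones. The strongest was intergenic, 53515 bp from Gng13, a G protein gamma subunit (chr17:25662955-25664658), at percentiles 60.9 and 70.3 in the WT lists. An intron of Zfpm1, a cofactor of GATA factors also called FOG1 (chr8:122322623-122323217, nearest coding TSS Trhr2), stood at 49.8 and 48.2. A region 60820 bp from Nos1, the neuronal nitric oxide synthase (chr5:117780759-117781500), stood at 43.0 and 41.5. A coding exon of Fam131c (chr4:141382743-141383496) stood at 42.6 and 34.1. An intron of Tcf20, a transcriptional coregulator (chr15:82958176-82958633), stood at 35.8 and 16.3. Zfpm1 held 4 GC-rich regions of which 2 were WT-restricted, 1 CTCF-K20R-restricted and 1, in its coding exon, common, so regions of a single gene went different ways.

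To compare peak strength where all 4 libraries had a peak, each list's −log10 p-values were ranked over the 38527 common regions and turned into normal scores, so that a score of 0 is the middle of a library's common regions and a difference of 1 is 1 SD of that ranking. The 1781 common GC-rich regions were stronger than most: their median percentile among common regions was 56.8 and 54.4 in WT and 58.2 and 58.2 in CTCF-K20R. Regions with lower GC had medians of 33.6 and 34.5 in WT and 33.2 and 33.5 in CTCF-K20R. The library medians of the 2 genotypes did not overlap in either set. In the regions with lower GC they differed by little, and the median difference per region, given next, was above 0. The other 235 GC-rich regions lacked a peak in at least 1 library and were not tested.

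Under limma with Benjamini-Hochberg adjustment over all common regions (adjusted p under 0.05), 45 of 1781 GC-rich regions were higher in CTCF-K20R (2.53%) and 18 lower (1.01%). The background over all 38527 regions was 3.13% higher and 4.68% lower. The share higher was near the background and the share lower was under it, with no test of these contrasts. Among regions with lower GC outside promoters 4.31% were higher and 7.18% lower. Both CTCF-K20R libraries ranked above both WT libraries in 33.5% of GC-rich regions and below them in 20.0%. These shares were 29.2% and 25.5% over all common regions. The median score difference, CTCF-K20R minus WT, was 0.0783 for GC-rich regions, 0.0169 for those with lower GC and 0.0296 over all common regions. Few or no GC-rich regions were called when 1 library was left out. The 63 called regions all kept the direction of their difference in each of these fits. Such fits reuse the other libraries of the main fit, so they are not independent of it. Without WT replicate 1, limma called no GC-rich region in either direction, with 259 at an unadjusted p under 0.05, and without WT replicate 2 it also called none, with 241. In both fits it called none of the common regions of any kind. Without CTCF-K20R replicate 1 there were 2 higher and 3 lower, and without replicate 2 there were 11 and 8, with the lone library assumed to vary like the other group. Over all common regions these fits called 157 higher and 843 lower of 42428, and 351 and 1195 of 40191.

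**Figure D2:**
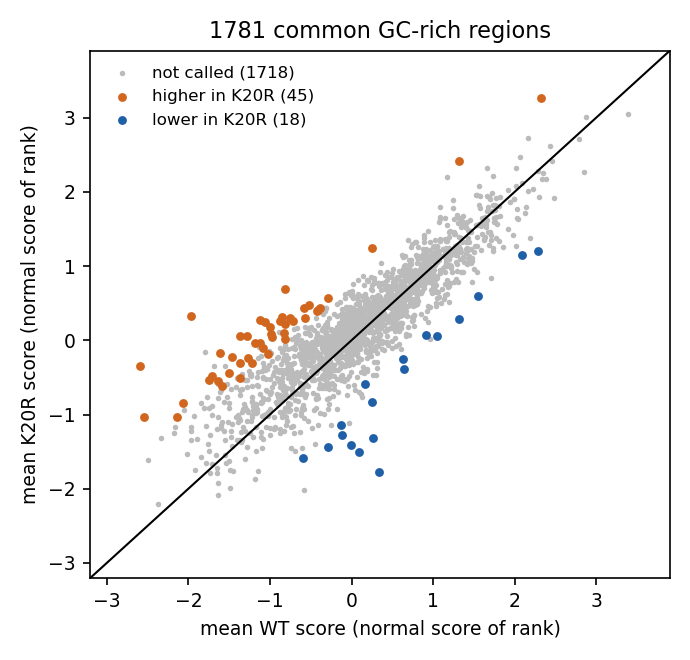
Mean normal score of the 2 WT libraries (x axis) and of the 2 CTCF-K20R libraries (y axis) for the 1781 common GC-rich regions, where a score is the rank of a region's peak among common regions on a normal scale. Orange points are the 45 regions called higher in CTCF-K20R, blue points the 18 called lower, and the line marks equal scores. Most orange points sit at low WT scores.

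The regions with the largest gains in score included the weakest in WT. Normal scores spread out ranks near both ends, so a small step in percentile counts for more there. The 45 called higher spanned differences of 0.817 to 2.30. The region with the largest difference was intergenic (chr8:69399174-69400027), 53869 bp from Gm9495 and 29 bp from Gm25661, annotated as a ribozyme. Its peak stood at percentiles 3.19 and 1.86 among common regions in WT and 66.7 and 59.1 in CTCF-K20R, a score difference of 2.30 ± 0.189 (SE, limma adjusted p = 0.00747). A coding exon of Slc9a3, a sodium and proton exchanger of epithelia (chr13:74166466-74167701, nearest coding TSS Exoc3), went from 0.0402 and 3.38 to 31.8 and 41.4. Its difference was 2.24 ± 0.460 (limma adjusted p = 0.0377). The exon of Tmem250-ps and 1810012K08Rik (chr2:26138450-26139021, nearest coding TSS Nacc2) stood at 1.57 and 0.170 in WT and 11.8 and 19.2 in CTCF-K20R. It therefore stayed among the weak peaks in both genotypes. The name of Tmem250-ps marks it as a possible copy of another gene, and reads shared with a copy are uncertain.

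The other regions of the first 5 ranked higher in WT. An intergenic region 48777 bp from Aasdhppt, which encodes a phosphopantetheinyl transferase (chr9:4259122-4261092), went from 25.4 and 16.5 to 73.7 and 77.1, a difference of 1.505 ± 0.192 (limma adjusted p = 0.0122). The coding exon of Cacna1i, the pore of a T-type calcium channel (chr15:80371916-80372984), went from 4.76 and 6.06 to 45.5 and 41.4. All 5 were chosen as called regions with the largest score differences, so the separation of their genotypes is part of that choice. Named after their values were seen, coding exons called higher also included that of Crb2, an apical polarity protein. Others named in this way were those of the transcription factors Junb, Klf1, Lhx3, Sall3 and Zfhx3, and of the unconventional myosins Myo10 and Myo15. Junb, Klf1 and Zfhx3 lie on chromosome 8, as does the region with the largest difference. Over all common regions of chromosome 8 the median difference was 0.231. Whether these gains go beyond that shift was not tested.

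**Figure D3:**
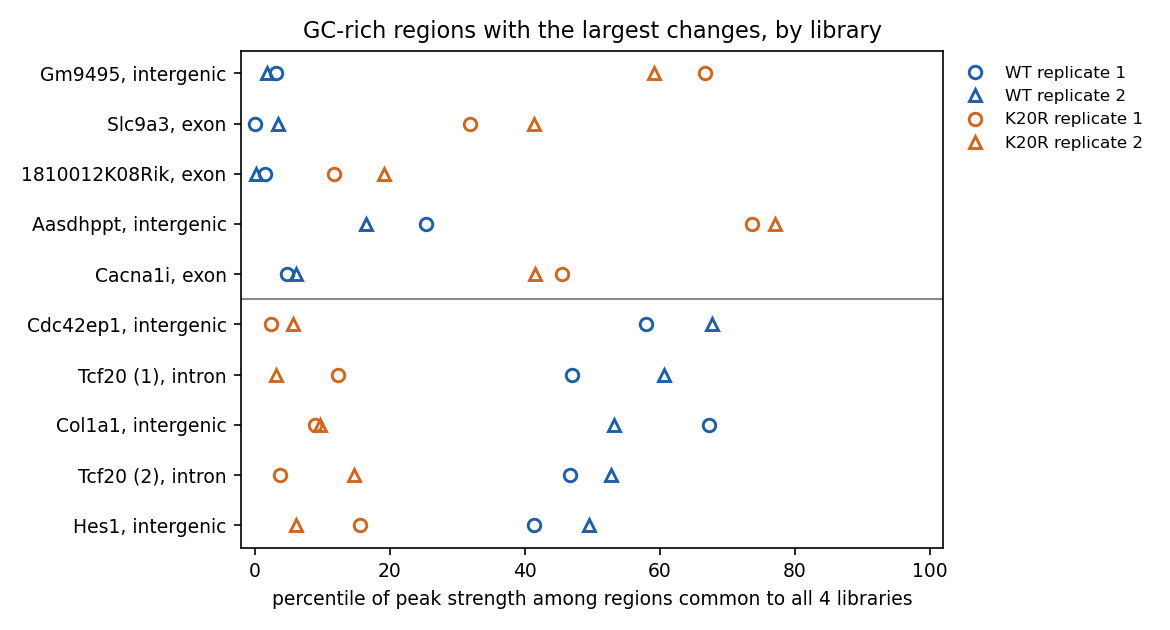
Percentile of peak strength among the regions common to all 4 libraries (x axis) for the 5 GC-rich regions with the largest gain in CTCF-K20R (above the line) and the 5 with the largest loss (below it). Each symbol is 1 library: WT in blue, CTCF-K20R in orange, replicate 1 as circles and replicate 2 as triangles. In each region the blue and orange symbols are separate, and the regions were chosen for their difference. Intergenic regions carry the name of the gene with the nearest coding TSS, and Tcf20 has 2 regions.

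The regions that fell lay mostly outside exons. An intergenic region 8163 bp from Cdc42ep1, an effector of the Cdc42 GTPase (chr15:78833511-78834828), stood at percentiles 58.01 and 67.8 in WT and 2.47 and 5.70 in CTCF-K20R. Its difference was −2.10 ± 0.212 (limma adjusted p = 0.00803). A region 7218 bp from Col1a1, which encodes a chain of type I collagen (chr11:94928624-94929292), fell from 67.3 and 53.2 to 8.99 and 9.61. A region 4896 bp from Hes1, a repressor downstream of Notch signalling (chr16:30069629-30071170), fell from 41.4 and 49.4 to 15.6 and 6.11, a difference of −1.16 ± 0.232 (limma adjusted p = 0.0351). These 3 regions were chosen in the same way, so the separation of their genotypes is part of that choice too.

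Introns of Tcf20 held 2 of the 5 largest losses. One (chr15:82960745-82961615) stood at 47.0 and 60.6 in WT and 12.4 and 3.20 in CTCF-K20R, with a difference of −1.60 ± 0.273 (limma adjusted p = 0.0241). The other (chr15:82952187-82952787) stood at 46.7 and 52.7 against 3.81 and 14.8. The WT-restricted Tcf20 region described above lies between them. The remaining GC-rich region of Tcf20 (chr15:82898641-82900289), with a GC content of 76.6%, stood at 54.7 and 52.4 in WT and 61.7 and 57.9 in CTCF-K20R, with no call (difference 0.160 ± 0.172). Neighbouring regions of a gene are not independent of each other.

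Zfhx3, which encodes a large zinc finger and homeodomain protein, held 5 GC-rich regions. A coding exon (chr8:108955326-108957030) stood at 19.2 and 4.65 in WT and 55.8 and 48.3 in CTCF-K20R, a difference of 1.33 ± 0.285 (limma adjusted p = 0.0425). Another coding exon of Zfhx3 (chr8:108946410-108948122) was CTCF-K20R-restricted. The 2 intronic regions of Zfhx3 had differences of 0.347 ± 0.178 and 0.5002 ± 0.241, neither of them called. The fifth, a coding exon (chr8:108791919-108792990), had no peak in WT replicate 1 and stood at list percentiles 26.2 in WT replicate 2 and 64.8 and 66.4 in CTCF-K20R. Zfhx3 was singled out after its values were seen, and it lies on chromosome 8, where ranks were shifted as a whole.

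Calls in the higher direction lay mostly in exons when −log10 p was ranked, and the contrast with other locations depended on the measure of strength. Of the 45 regions called higher, 33 (73.3%) had their summit in an exon and 27 in coding sequence, against 37.6% exonic among all common GC-rich regions. Of the 18 called lower, 4 were exonic. Of 669 common exonic regions, 4.93% were higher and 0.598% lower, with a median difference of 0.177. Of 1112 outside exons, 1.08% were higher and 1.26% lower, with a median of 0.0311. In the exonic regions the median percentile was 47.4 and 43.4 in WT and 53.6 and 53.8 in CTCF-K20R, and the genotypes did not overlap. Outside exons it was 61.4 and 59.6 in WT and 60.7 and 60.8 in CTCF-K20R, and they did. Leaving out each library in turn gave medians of 0.118 to 0.198 in exons and −0.00521 to 0.0591 outside them. On the log2 fold at the summit, 19 exonic regions were higher and 3 lower, and 13 and 3 outside exons. Over all 38527 common regions this measure called 997 higher and 1613 lower. On ranks of the fold the counts were 14 and 2 in exons and 13 and 2 outside them. Over all common regions these were 792 and 1201. On both measures the calls outside exons were few among the 1112 regions there, and most of these few were higher.

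**Figure D4:**
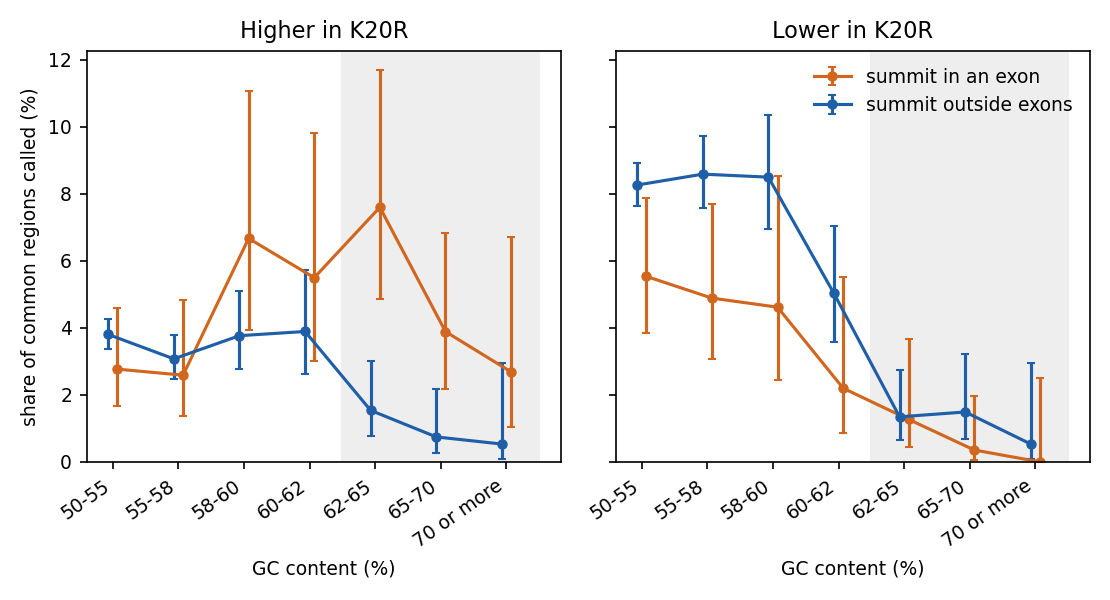
Share of common regions outside promoters called by limma (y axis, percent, adjusted p under 0.05), by GC content around the strongest summit (x axis, percent), for regions with the summit in an exon (orange) or outside exons (blue). The left panel shows regions higher in CTCF-K20R and the right panel those lower. Bars are 95% Wilson intervals for counting error only, and the shaded bins are the GC-rich regions. At 62 to 65% GC, 7.59% of exonic regions are higher against 1.54% of the others.

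Exonic regions were weaker than the others, so the calls were also counted within strength classes. Among common GC-rich regions with a mean score under 0, 30 of 347 exonic regions were higher (8.65%) and 3 lower, against 10 of 402 (2.49%) and 7 outside exons. With a mean score of 0 or more, 3 of 322 exonic regions were higher and 1 lower, against 2 of 710 and 7 outside exons. The contrast with regions outside exons varied with GC content. At 50 to 55% GC, 2.77% of exonic regions and 3.80% of the others were higher, and at 55 to 58% these were 2.59% and 3.07%. Below the GC minimum the exonic share was already the larger at 58 to 60% (6.67% against 3.76%) and at 60 to 62% (5.49% against 3.89%). Common regions in coding sequence with lower GC had a median difference of 0.134, with 38.6% above and 20.2% below WT in both CTCF-K20R libraries. At 62 to 65% GC, 18 of 237 exonic regions were higher (7.59%) against 8 of 521 outside exons (1.54%). At 65 to 70% these were 11 of 283 and 3 of 403. Calls in the lower direction outside exons dropped from 8.49% at 58 to 60% GC to 1.34% at 62 to 65%, as the plot of calls by GC content and location shows. Exons with no annotated TSS within 1 kb had a median difference of 0.211 and 23 higher and 4 lower of 435.

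Calls in the lower direction were rarer in regions rich in CpG, while the share called higher was similar. Of 1273 common GC-rich regions with a CpG ratio of at least 0.6, 31 were higher (2.44%) and 4 lower (0.314%), with a median difference of 0.104. Of 508 with a smaller ratio, 14 were higher and 14 lower (2.76% each), with a median of −0.000145. Over all common regions 3.13% were higher and 4.68% lower. Exonic regions with a ratio of at least 0.6 numbered 526, with 25 higher (4.75%) and 0 lower under limma. Of these 526, 62 ranked below WT in both CTCF-K20R libraries. Among 143 exonic regions with a smaller ratio, 8 were higher (5.59%) and 4 lower (2.80%). The median CpG ratio was 0.668 in the regions called higher and 0.440 in those called lower.

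**Figure D5:**
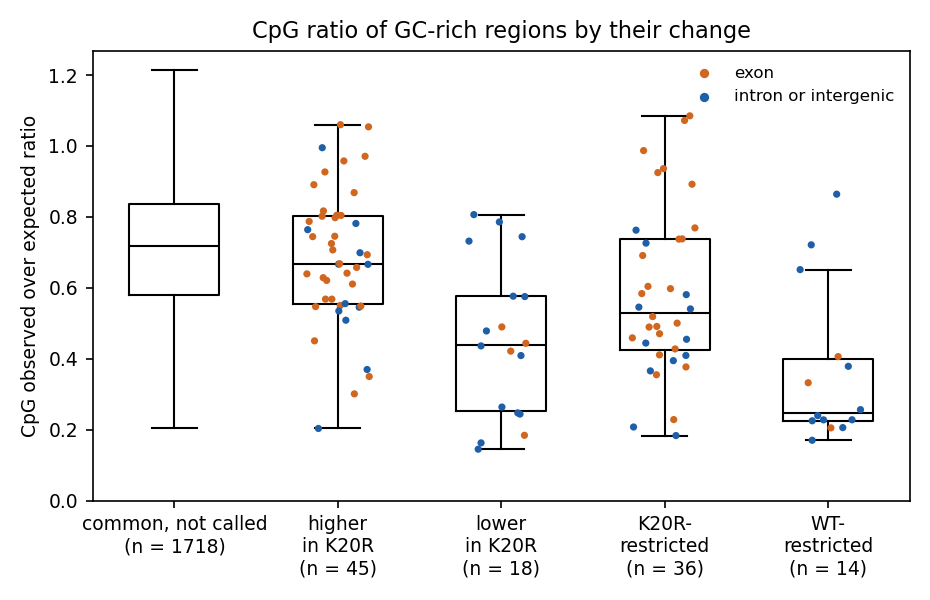
CpG observed over expected ratio within 250 bp of the strongest summit (y axis) for GC-rich regions, grouped by their change between genotypes (x axis). Boxes show quartiles with the median as a line and whiskers to 1.5 times the interquartile range, and points are single regions, orange for exons and blue for introns and intergenic regions. The median is 0.668 for the 45 regions higher in CTCF-K20R, 0.440 for the 18 lower, 0.530 for the 36 CTCF-K20R-restricted and 0.248 for the 14 WT-restricted.

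Chromosome 8 held more gains than other chromosomes. Of its 114 common GC-rich regions, 12 were higher and 0 lower under limma, with 13 ranking lower in both CTCF-K20R libraries and a median difference of 0.387. Over all 2086 common regions of chromosome 8, 185 were higher and 85 lower, with a median of 0.231. Chromosome 14 stood the other way, with a median of −0.198 over its 45 common GC-rich regions and −0.129 over all 1258 common regions. DNA copy number was not measured, and its part in these values was not tested. On the other autosomes than 8, 33 GC-rich regions were higher and 18 lower of 1667, and among these 25 of 624 exonic regions were higher and 4 lower.

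The motifs near the summits differed from those of other open regions. Within 100 bp of the summit, on both strands, the CTCF consensus was matched in 35 GC-rich regions (1.74%), against 7.31% of regions with lower GC, 5.97% of all 80380 regions and 1.11% of promoter regions. Of these 35, 34 were common, 1 was called higher and 0 lower. Both CTCF-K20R libraries ranked above both WT libraries in 12 of the 34 (35.3%) and below them in 6 (17.6%). These shares were near the 33.5% and 20.0% of all common GC-rich regions. The region near Irx4 shown above (chr13:73159503-73160706) stood at percentiles 90.4 and 89.4 in WT and 88.7 and 86.4 in CTCF-K20R, a difference of −0.122 ± 0.172 (limma adjusted p = 0.725). The called region was a UTR exon of Fam222a, at 16.9 and 14.1 in WT and 37.4 and 47.5 in CTCF-K20R (limma adjusted p = 0.0480). The GC box GGGCGG, bound by SP and KLF factors, was in 54.3% of GC-rich regions, 9.90% of those with lower GC, 20.0% of all regions and 56.9% of promoter regions. It was in 22 of the 45 regions called higher, 7 of the 18 lower and 10 of the 36 CTCF-K20R-restricted. The E2F motif TTCGCGC was in 2.58% against 0.165%, and the NRF1 core GCGCATGC in 1.64% against 0.558%. Among all regions these were 0.608% and 1.05%. AT-richer motifs were scarcer: the GATA motif AGATAA was in 1.69% against 9.27% (7.81% of all regions), the T-box motif TCACACCT in 0.446% against 1.45% (1.25%) and the AP-1 motif TGANTCA in 2.58% against 8.23% (7.07%). The ZBTB33 motif TCTCGCGA was in 6 GC-rich regions, or 0.298% (0.284% of all regions). GC content alone changes how often such letters occur, so these shares are descriptions.

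Of the 5 strongest GC-rich regions, limma called 1. The region in Gm15287, nearest coding TSS Mier3 (chr13:111724923-111726125), stood at percentiles 99.95 and 99.98 in WT and 99.84 and 99.92 in CTCF-K20R, a score difference of −0.347 ± 0.190 (limma adjusted p = 0.328). The intron of Phf19, a Polycomb-like protein (chr2:34904720-34905536), stood at 99.7 and 99.9 against 99.8 and 99.9, a difference of 0.142 ± 0.181. Percentiles this close to 100 leave little room to differ. The regions of Gm42906 and Gm37494, the latter nearest Zfp619, had differences of −0.0750 ± 0.265 and 0.186 ± 0.230. The called region was intergenic, near Zfp869 on chromosome 8 (chr8:69716415-69717347), at 99.3 and 98.5 in WT and 99.95 and 99.93 in CTCF-K20R, which was called higher (0.940 ± 0.191, limma adjusted p = 0.0369).

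To determine whether developmental genes carried these regions, GC-rich regions were assigned to the gene with the nearest protein-coding TSS and to any gene they overlapped. Over all 1781 common GC-rich regions, 2.53% were called higher and 1.01% lower, and 324 had an unadjusted limma p under 0.05. Of all 2016, 0.694% were WT-restricted and 1.79% CTCF-K20R-restricted. At these shares a short list holds few or no such regions, so a lack of them says little about its genes. Early mesoderm genes had 10 regions, 7 of them common and none of these called, with 0 at an unadjusted limma p under 0.05 and a median difference of −0.147. The other 3 included 2 CTCF-K20R-restricted coding exons, those of Gsc, a homeobox gene of the organizer, and of Foxa2, a forkhead gene of endoderm and axial mesoderm. The peaks of Gsc (chr12:104471076-104472305) stood at percentiles 39.7 and 17.5 of the CTCF-K20R lists, and those of Foxa2 (chr2:148044001-148045187) at 13.9 and 26.4. Regions of Cdx2, a caudal homeobox gene, were strong in all libraries: the intronic one (chr5:147304345-147307630) stood at 65.4 and 71.7 in WT and 61.96 and 60.6 in CTCF-K20R.

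Cardiac genes had 20 regions, 15 of them common. None was restricted to a genotype and limma called none, with 1 at an unadjusted p under 0.05 and a median difference of 0.00379. Among them, the intronic region near Hand2 (chr8:57340610-57342288) stood at percentiles 70.4 and 68.5 in WT and 74.7 and 64.1 in CTCF-K20R, so the genotypes overlapped. Neuroectoderm genes had 23 regions, 20 common, with none restricted or called and 3 at an unadjusted limma p under 0.05. Pluripotency genes had 4, all common and uncalled, with 1 at an unadjusted limma p under 0.05. Of these, 3 lay near Klf4, with differences of 0.257 ± 0.1804, 0.328 ± 0.249 and 0.501 ± 0.178. Endoderm genes had 6, all common, uncalled and with 0 at an unadjusted limma p under 0.05. The intergenic region 74393 bp from Sox17 stood at 89.7 and 92.9 in WT and 79.8 and 84.5 in CTCF-K20R. Regions with lower GC at the same genes did include restricted ones. The WT-restricted and CTCF-K20R-restricted counts were 28 and 7 of 157 for early mesoderm and 48 and 2 of 195 for cardiac genes. They were 21 and 6 of 217 for neuroectoderm, 19 and 15 of 192 for pluripotency and 31 and 3 of 111 for endoderm genes. Over all regions with lower GC the shares were 12.8% and 3.66%.

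Homeobox and paired family genes had the most, with 76 regions at 55 of 117 genes. Of these, 68 were common, 1 was called higher and 0 lower, and 14 had an unadjusted limma p under 0.05. Both CTCF-K20R libraries ranked above both WT libraries in 24 of these 68 (35.3%) and below them in 12 (17.6%). These shares were near the 33.5% and 20.0% of all common GC-rich regions. The median difference was 0.177, with 34 of the 76 in exons. The called region was the coding exon of Lhx3, a LIM homeobox gene of motor neurons and pituitary (chr2:26202086-26203269), at 3.65 and 8.44 in WT and 32.1 and 22.4 in CTCF-K20R (0.973 ± 0.220, limma adjusted p = 0.0486). A region near Nkx1-1 was CTCF-K20R-restricted and one near Lhx5 WT-restricted. Imprinted genes had 16, 14 of them common, with 1 higher, 0 lower and 5 at an unadjusted limma p under 0.05. The call was in an intron of Rian, a maternally expressed non-coding RNA, with Rtl1 as the nearest coding gene (chr12:109612524-109613481), at 6.64 and 15.2 in WT and 39.0 and 42.0 in CTCF-K20R (1.03 ± 0.215, limma adjusted p = 0.0396). The region nearest Mcts2, in an exon of H13 (chr2:152706951-152708269), stood at 98.9 and 98.0 in WT and 92.6 and 90.7 in CTCF-K20R and was not called (−0.798 ± 0.185, limma adjusted p = 0.0516). Genes of Polycomb proteins and CTCF cofactors had 6, of which 4 were common and none called, with 0 at an unadjusted limma p under 0.05. Histone genes had none.

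Clustered protocadherins, neuronal adhesion proteins whose promoters and exons bind CTCF, had 3 GC-rich regions, all in coding exons. The region of Pcdhb18 stood at percentiles 52.8 and 46.3 in WT and 53.6 and 63.7 in CTCF-K20R, and that of Pcdhb19 at 44.2 and 60.3 against 36.2 and 55.6. The region of Pcdha3 had a peak in WT replicate 2 and in both CTCF-K20R libraries. Limma called none of the common 2, with 0 at an unadjusted p under 0.05.

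Single regions beside the GC minimum are given as examples. Just inside, at 62.1% GC, lay regions near Arid5a, Slc23a3 and Btg2, with score differences of −0.184 ± 0.223, −0.273 ± 0.181 and −0.303 ± 0.172. Just outside, at 61.9%, lay regions near Kif21b, Chst3 and Gpx4, with −0.0726 ± 0.178, 1.09 ± 0.173 and −0.279 ± 0.182. The region of Chst3 was called higher (limma adjusted p = 0.0198).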

How the data were processed

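ATAC-seq was performed on 2 WT and 2 CTCF-K20R EB samples. The authors trimmed reads with Trim Galore, aligned them to mm10 with Bowtie2, removed reads of low mapping quality, duplicates and blacklisted regions, and called peaks with MACS2 in each library. The deposited lists give for each peak the −log10 p-value and −log10 q-value, the fold enrichment (a ratio of signal over background) at the summit and a display score, as MACS2 wrote them. No deposited count of reads was used, so depth behind a peak is unknown.

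Here, peaks were merged into regions, annotated with GENCODE vM21 and the GRCm38.p6 genome, and −log10 p-values were ranked within each list. Normal scores were tested with limma 3.58.1 (R 4.3.3, lmFit and eBayes, all 4 libraries, 38527 common regions, Benjamini-Hochberg, two-sided), after a test on simulated data. CTCF-K20R minus WT is the direction of every difference. Named regions were the 5 largest called changes in each direction, the 5 strongest regions of each restricted class and of the whole class, up to 3 uncalled regions per gene list and all that changed, and those beside the GC minimum. The members, the lists and the split by exon were chosen with earlier results of these data known, so no list has a p of its own. Other settings are given in the closing section.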

Additional observations from a re-analysis of the deposited data

How the results depend on the processing

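The log2 ratio and the median difference over all common GC-rich regions kept their sign under each alternative run. The balance of calls did not: 12 were higher and 14 lower without exonic regions, and 2 and 3 without CTCF-K20R replicate 1. The log2 ratio of WT-restricted to CTCF-K20R-restricted GC-rich regions (−1.36) was −0.150 with a GC minimum of 60%, −2.46 with 65%, −0.216 with GC measured within 100 bp, −3.10 with the same number of strongest peaks per list and −0.126 without exonic regions. It ranged from −2.22 to −0.443 when each library was left out. The share called lower (1.01%) was 2.05% with a GC minimum of 60%, 2.45% with GC within 100 bp, 0.337% on the log2 fold and 0.225% on ranks of the fold. The share called higher (2.53%) was 1.52% on ranks of the fold and 1.08% without exonic regions. Leaving out each library gave 0 to 0.444% lower and 0 to 0.610% higher. The median difference (0.0783) was 0.136 with ranks among regions outside promoters, 0.0311 without exonic regions, and 0.0315 to 0.109 with each library left out. The cause of these shifts was not tested, except that leaving out a library leaves fewer samples. Leaving out exonic regions or chromosome 8 was chosen after seeing the data, and without chromosome 8 the log2 ratio was −1.40 and the share called higher 1.98%.

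With the replicate number as a replicate block, 1.18% were lower and 3.09% higher, with a median of 0.0783. The labels do not say whether same-numbered samples were prepared together. Deviations of same-numbered libraries correlated at 0.0393 over 38527 regions, which cannot decide that, since ranking removes shifts of a whole library. On the log2 fold and on ranks of the fold, 26 and 23 of the 63 called regions were called. Outside exons, the 12 higher and 14 lower became 13 and 3 on the log2 fold, and the median turned from 0.0311 to −0.00521 without WT replicate 2. Read depth, a missing peak and an unstated filter limit every presence count.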

Other observations

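Promoter regions also held fewer WT-restricted regions at higher GC content. At 45 to 50% GC, 69 of 668 promoter regions (10.3%) were WT-restricted and 19 (2.84%) CTCF-K20R-restricted. At 60 to 62% the counts were 10 and 13 of 1415. At 65 to 70% they were 1 and 12 of 3377, and above 70% they were 0 and 7 of 2567. Among common promoter regions at 65 to 70% GC, 37 were higher and 17 lower of 3326 under limma, with a median score difference of 0.0438.

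Regions of lower GC with a CpG ratio of at least 0.6 stood apart from others of lower GC. Of 1585 such regions, 32 were WT-restricted and 83 CTCF-K20R-restricted. Of the 1130 common ones, 49 were higher (4.34%) and 12 lower (1.06%), with a median difference of 0.142. With a smaller ratio, 7900 of 60368 were WT-restricted and 2185 CTCF-K20R-restricted. Of the common ones with a smaller ratio, 4.31% were higher and 7.50% lower, so the share higher was similar. Among the 1585, 354 were exonic, of which 4 were WT-restricted and 32 CTCF-K20R-restricted.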
